A study of Mus musculus with 10 samples.

Results

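Osteopontin, encoded by Spp1, and 6 genes for its receptors were followed through 10 mouse RNA-seq libraries labelled medulloblastoma, a tumour of the cerebellum, or cerebellum. The 7 genes were Spp1, Cd44, Itgav, Itgb1, Itgb3, Itgb5 and Itga9, taken by symbol from a table of 39769 genes, and each passed the filter on low counts that left 15617 genes for testing. Spp1 was chosen by its measured log2 fold change in AKP against Ptch, among the largest increases in that contrast of the same libraries. The other comparisons share libraries with that contrast, so all values of Spp1 are given as description, with no test. The receptor genes were chosen for their known binding of osteopontin and were tested.

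The AKP group held 3 libraries of medulloblastoma from mice with Cre under the Atoh1 promoter (spelled AtohI-Cre in the labels), 1 floxed copy of Kmt2d (Kmt2dfl/+) and 1 intact copy of Ptch1 (Ptch+/-), with AKP 1 and AKP 2 at 2 months of age and AKP 3 at 4 months. The NKP group held 3 libraries of medulloblastoma with Nestin-Cre, Kmt2dfl/+ and Ptch+/-, all at 4 months. The Ptch group, labelled control, held 4 libraries of Ptch+/- cerebellum with no Cre or floxed allele named, of which Ptch 1 and Ptch 2 were taken at 4 months of age, and the other two (Ptch 3 and Ptch 4) at 2 months. Ptch+/- is therefore common to all 10 libraries. Atoh1 is expressed in granule neuron precursors and Nestin more broadly in neural stem and progenitor cells. No tumour group without Cre and floxed Kmt2d was analysed here, so the tissue and the Kmt2d genotype cannot be told apart. Poly-A RNA was sequenced from kits that do not mark strand, and no label states that each library is a separate animal. The p-values therefore measure only the spread between libraries.

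Osteopontin is a secreted, acidic phosphoprotein of bone matrix that also acts as a cytokine. Its RGD motif is bound by integrins that pair the αv chain (Itgav) with β1, β3 or β5 (Itgb1, Itgb3, Itgb5). A neighbouring site, exposed when thrombin cuts the protein, is bound by integrin α9β1 (Itga9 with Itgb1), and CD44 (Cd44) is a hyaluronan receptor also described as binding osteopontin. In the brain, osteopontin is known from reactive microglia and macrophages, and from large projection neurons of the brainstem and deep nuclei.

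Several libraries stood apart from their labels. In 4 of 10, sex-linked genes went against the sex label. Ptch 1, labelled male, was nearly without Y-linked expression, and Ptch 3, NKP 3 and AKP 3, labelled female, carried it. NKP 2 held both kinds of signal, with Y-linked genes at 68.4 CPM in sum and Xist, the RNA of the inactive X chromosome, at 74.8 CPM. Only Ptch 1 and Ptch 2 were nearly without Y-linked expression (0.385 and 0.465 CPM in sum), with Xist at 251 and 298 CPM. The Y-linked sum was 55.0 to 99.2 CPM in the other libraries, which include all of AKP and NKP. Sex by expression is therefore not balanced between the groups. Likeness of library pairs was measured as chi-square per degree of freedom, lower in pairs more alike. NKP 3 was at 3.84 with Ptch 4 and 5.37 with Ptch 3. It was at 17.1 with NKP 1 and 15.2 with NKP 2. NKP 1 was at 3.53 with AKP 1 and 16.1 with NKP 2. Ptch 1 with Ptch 2, Ptch 3 with Ptch 4 (3.30) and AKP 2 with AKP 3 (8.76) were near pairs within a label. Other pairs within a label were far apart. Ptch 1 and Ptch 2 were at 26.6 to 28.8 with Ptch 3 and Ptch 4, and AKP 1 was at 38.3 with AKP 2 and 19.2 with AKP 3. Whether any library was exchanged with another was not tested, so every difference given here compares groups by label. Kmt2d, the floxed gene, was at 34.3, 41.3 and 43.6 CPM (a gene's count scaled to the size of its library) in AKP 1 to 3, at 33.2, 46.9 and 58.0 CPM in NKP 1 to 3, and at 52.6 to 68.4 CPM in the 4 Ptch libraries. NKP 3 thus lay within the Ptch range. A count over the whole gene need not fall when a single floxed exon is lost. Kmt2d did not pass the test in AKP against Ptch (edgeR log2 fold change -0.56, SE 0.166, adjusted p = 0.0650) or in NKP against Ptch (-0.34, SE 0.164, edgeR adjusted p = 0.307). Ptch1 was at 70.6 ± 18.2 CPM in AKP, 98.8 ± 12.6 CPM in NKP (SD, n = 3 each) and 88.7 ± 15.3 CPM in Ptch (SD, n = 4), and did not pass either (edgeR adjusted p = 0.268 for AKP and 0.669 for NKP, both against Ptch). Markers of cycling cells summed to 3.04, 166 and 132 CPM in AKP 1 to 3, to 4.42, 3.43 and 35.6 CPM in NKP 1 to 3, and to 79.2 to 262 CPM in the Ptch libraries. Of the libraries labelled medulloblastoma, AKP 1, NKP 1 and NKP 2 were thus nearly without cycling markers, while Ptch 1 and Ptch 2, labelled cerebellum, were the highest of all. Library totals ran from 12300430 to 19348991 counts.

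Spp1 lies on chromosome 5 (104435111 to 104441053, GRCm38.p6) and no other annotated gene overlaps it. The 250 bases before its start (chr5:104434861-104435110, + strand, RefSeq, GRCm38.p6) are shown because Spp1 is the gene of the set whose level differed most between the groups. The same window of Itgb5 (chr16:33829415-33829664, + strand) is shown beside it because Itgb5 had the highest level per length of the 6 receptor genes in all 10 libraries and varied little. Both run 5′ to 3′ up to the base before the start, and capitals mark motif matches.
Spp1: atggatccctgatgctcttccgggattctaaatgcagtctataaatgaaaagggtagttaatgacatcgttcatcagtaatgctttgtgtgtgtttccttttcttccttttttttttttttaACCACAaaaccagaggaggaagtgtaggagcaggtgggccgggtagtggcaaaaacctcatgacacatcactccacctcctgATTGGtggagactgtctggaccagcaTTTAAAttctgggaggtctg
Itgb5: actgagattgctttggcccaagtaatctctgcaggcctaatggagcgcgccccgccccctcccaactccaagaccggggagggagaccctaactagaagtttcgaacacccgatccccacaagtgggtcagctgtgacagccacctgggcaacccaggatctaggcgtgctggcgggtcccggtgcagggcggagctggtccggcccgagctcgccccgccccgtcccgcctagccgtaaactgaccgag
Both strands were searched for 3 motifs. The first was ACCACA, the core of the RUNX factors' site, or its complement on the opposite strand. The second was the CCAAT box, which appears in the printed window from the opposite strand, with the letters ATTGG. The third was TTTAAA, an AT-rich box that reads the same on either strand. In the Spp1 window ACCACA lies 128 to 123 bases before the start. The CCAAT box, on the opposite strand, lies 46 to 42 bases before it and the AT-rich box 20 to 15 bases before it, with no overlap. The Itgb5 window holds none of the 3. Over 32851 promoter windows of that length, the RUNX core is found in 14.0%, the CCAAT box in 33.8% and the AT-rich box in 12.1%. Spp1 has 3 CpG pairs and 43.6% G and C in its window, and Itgb5 has 18 and 65.2%, against medians of 6 and 52.4% over all windows. RefSeq windows matched 6 of the 7 genes, with Itgb3 not among them. A match is a description of letters, and neither binding nor methylation was measured.

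Spp1 transcripts were more abundant in every medulloblastoma-labelled library than in any Ptch library. The level was 63.3, 97.5 and 93.7 CPM in AKP 1 to 3, 55.7, 68.3 and 42.2 CPM in NKP 1 to 3, and 20.9, 18.4, 33.4 and 35.3 CPM in Ptch 1 to 4. The AKP and the NKP libraries each lay wholly above the Ptch libraries, and AKP 1 lay below NKP 2, so the tumour-labelled groups overlapped. Within the AKP group the 2 highest values were those of AKP 2 and AKP 3. Within the Ptch group the 2 libraries of 4 months were lower than the 2 of 2 months. These levels rest on 272 to 1352 counts of Spp1 per library.

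Spp1 averaged 84.9 ± 18.8 CPM in AKP (SD, n = 3) and 27.01 ± 8.58 CPM in Ptch (SD, n = 4), a log2 fold change of 1.65 (SE 0.269), or 3.14-fold. It averaged 55.4 ± 13.1 CPM in NKP (SD, n = 3), a log2 fold change of 1.03 against Ptch (SE 0.269), or 2.05-fold. Between the tumour-labelled groups the AKP mean was 1.53-fold the NKP mean (log2 fold change 0.62, SE 0.285). The first pair of differences shares the Ptch libraries and is therefore not independent. Of all tested genes, 12.9% lay wholly higher in AKP than in Ptch and 6.96% wholly higher in NKP than in Ptch, so a lack of overlap alone was common. In bulk tissue, a difference in the share of a cell type and a difference in RNA per cell cannot be told apart.

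Split by age, the order was the same, which the lack of overlap with Ptch fixed in advance for the comparisons with Ptch. At 2 months Spp1 stood at 63.3 and 97.5 CPM in the AKP libraries and at 33.4 and 35.3 CPM in the Ptch libraries. At 4 months it stood at 93.7 CPM in AKP 3, at 42.2 to 68.3 CPM in the NKP libraries and at 20.9 and 18.4 CPM in the Ptch libraries. The log2 fold change was 1.22 for AKP against Ptch at 2 months and 1.499 for NKP against Ptch at 4 months. The 4-month Ptch libraries are Ptch 1 and Ptch 2, the pair highest in cycling markers and alone in being nearly without Y-linked expression. Within the Ptch group, age, sex by expression and that pair therefore cannot be told apart.

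The Spp1 difference kept its sign without each set of libraries in doubt. Against Ptch this was fixed in advance, since every AKP and NKP library lay above every Ptch library. Without the 4 libraries against their sex label the log2 fold change was 1.59 for AKP against Ptch, 1.21 for NKP against Ptch and 0.38 for AKP against NKP. Without NKP 3, NKP against Ptch was at 1.20 and AKP against NKP at 0.46. Without Ptch 1 and Ptch 2 the values were 1.31 for AKP and 0.68 for NKP against Ptch. Without AKP 1, NKP 1 and NKP 2, the libraries nearly without cycling markers, AKP against Ptch was at 1.82, NKP against Ptch at 0.65 and AKP against NKP at 1.17. NKP 3 was then the only NKP library.

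**Figure D1:**
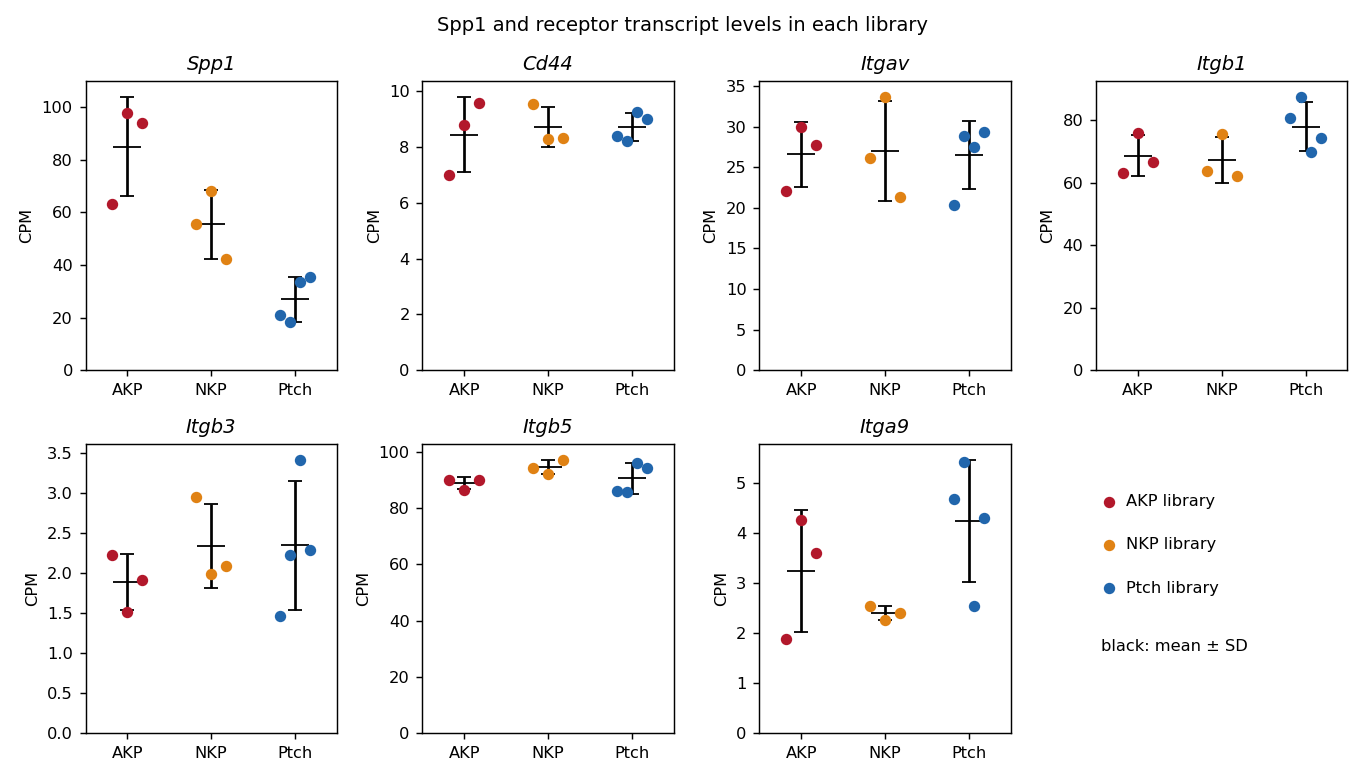
CPM (vertical axes, each from 0) of Spp1 and the 6 receptor genes in each library (points), by group, with the group mean and SD in black. Spp1 lies at 42.2 CPM or more in every AKP and NKP library and at 35.3 CPM or less in every Ptch library, while the groups overlap for most receptor genes.

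None of the 6 receptor genes passed the test in any comparison. edgeR called 0 of 6 in AKP against Ptch, where 5.68% of all tested genes passed, and DESeq2 also called 0; at an unadjusted p under 0.05 the count was 0 of 6 by both tools, against 25.1% of all genes by edgeR. Of all genes 3.38% rose and 2.3% fell there. edgeR called 0 of 6 in NKP against Ptch, where 0% of genes passed, and DESeq2 called 0. Itga9 was the 1 receptor gene with an unadjusted p under 0.05 there by either tool, against 17% of all genes by edgeR. In AKP against NKP both tools called 0 of 6, with 0.0064% of all genes passing by edgeR, and no receptor had an unadjusted p under 0.05 by either tool, against 16.9% of all genes by edgeR. The median receptor log2 fold change was -0.11 in AKP against Ptch, -0.01 in NKP against Ptch and -0.03 in AKP against NKP, beside -0.02, 0.01 and -0.01 over all tested genes in those 3 comparisons.

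Itgb5 encodes the β5 chain, which pairs with αv (chromosome 16, 33829665 to 33949338), and was the most evenly expressed of the set. It was at 90.2, 86.4 and 90.05 CPM in AKP 1 to 3, at 94.3, 92.2 and 97.1 CPM in NKP 1 to 3, and at 86.04, 85.8, 96.2 and 94.3 CPM in Ptch 1 to 4. All AKP libraries lay below all NKP libraries, as did 9.52% of all tested genes (6.69% lay wholly higher), and both groups overlapped the Ptch range. The difference in AKP against NKP was a log2 fold change of -0.09 (SE 0.0822, 95% interval -0.27 to 0.09, edgeR adjusted p = 0.589). Against Ptch it was -0.03 in AKP (interval -0.19 to 0.14, edgeR adjusted p = 0.861) and 0.06 in NKP (-0.10 to 0.23, adjusted p = 0.706), the narrowest intervals of the 6 receptor genes.

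Itgav encodes αv, the shared partner of the RGD-binding β chains (chromosome 2, 83722303 to 83806917). It was at 22.1, 29.9 and 27.7 CPM in AKP 1 to 3, at 26.2, 33.6 and 21.3 CPM in NKP 1 to 3, and at 20.3, 28.8, 27.5 and 29.4 CPM in Ptch 1 to 4. The groups overlapped almost wholly, with a mean of 26.6 ± 4.03 CPM in AKP, 27.02 ± 6.20 CPM in NKP (SD, n = 3 each) and 26.5 ± 4.19 CPM in Ptch (SD, n = 4). The intervals of the log2 fold change, -0.37 to 0.37 in AKP against Ptch and -0.34 to 0.40 in NKP against Ptch, allow differences of up to about 1.30-fold and 1.32-fold upward. A pseudogene, Dnmt3l-ps1, overlaps Itgav, and reads of overlapping genes cannot be told apart without strand.

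Itgb1 encodes β1, the partner of both αv and α9 and of many other α chains (chromosome 8, 128685654 to 128733579). It was at 63.2, 76.0 and 66.8 CPM in AKP 1 to 3, at 63.8, 75.7 and 62.3 CPM in NKP 1 to 3, and at 80.8, 87.4, 69.8 and 74.2 CPM in Ptch 1 to 4. Ptch 1 and Ptch 2 were the highest 2 libraries, and the other Ptch libraries lay within or next to the tumour-labelled ranges. The log2 fold change was -0.18 in AKP (SE 0.107, 95% interval -0.41 to 0.05, edgeR adjusted p = 0.305) and -0.21 in NKP against Ptch (SE 0.106, interval -0.44 to 0.01, adjusted p = 0.319). Without Ptch 1 and Ptch 2, Itgb1 in NKP against Ptch was at -0.10.

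Itga9 encodes α9, the chain that binds the thrombin-exposed site (chromosome 9, 118606709 to 118901003). It was at 1.89, 4.26 and 3.61 CPM in AKP 1 to 3, at 2.54, 2.27 and 2.41 CPM in NKP 1 to 3, and at 4.69, 5.42, 2.54 and 4.31 CPM in Ptch 1 to 4. The NKP libraries all lay below the Ptch libraries, by a margin at Ptch 3 that rounding hides, as did 8.95% of all tested genes; AKP overlapped both. In NKP against Ptch the log2 fold change was -0.82 (SE 0.317, 95% interval -1.501 to -0.14, unadjusted p = 0.0225), which did not pass over all genes (edgeR adjusted p = 0.234). In the libraries of 4 months alone it was -1.08, with an edgeR adjusted p = 0.0167, the 1 setting in which a receptor gene passed. There 15.6% of all tested genes passed, so 1 of 6 receptor genes is near that share. Over all alternatives, by edgeR or DESeq2, its adjusted p ran from 0.0167 to 0.990. Those Ptch libraries are again Ptch 1 and Ptch 2, and without that pair Itga9 was at -0.51. In AKP against Ptch it was at -0.37 (interval -1.05 to 0.30, edgeR adjusted p = 0.489) and in AKP against NKP at 0.44 (-0.29 to 1.18, adjusted p = 0.509). Itga9 rests on 23 to 105 counts per library, and annotated non-coding RNA genes and a pseudogene overlap it, whose reads cannot be told apart without strand.

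Cd44, the hyaluronan receptor (chromosome 2, 102811141 to 102901669), was at 6.99, 8.80 and 9.58 CPM in AKP 1 to 3, at 9.57, 8.29 and 8.32 CPM in NKP 1 to 3, and at 8.39, 8.21, 9.26 and 9.002 CPM in Ptch 1 to 4. AKP 1 was the lowest library, and the remaining AKP and NKP libraries lay within or next to the Ptch range. The log2 fold change was -0.04 in AKP (95% interval -0.39 to 0.30, edgeR adjusted p = 0.899) and -0.0011 in NKP against Ptch (interval -0.34 to 0.34, adjusted p = 0.998). A small nuclear RNA gene overlaps Cd44.

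Itgb3 encodes β3, the partner of αv in the vitronectin receptor of osteoclasts (chromosome 11, 104608000 to 104670476). It was at 2.22, 1.52 and 1.92 CPM in AKP 1 to 3, at 2.94, 1.99 and 2.08 CPM in NKP 1 to 3, and at 1.46, 2.22, 3.41 and 2.28 CPM in Ptch 1 to 4. The Ptch libraries spanned a range that held every other library. With 19 to 67 counts per library, the intervals were wide, -1.03 to 0.37 on the log2 scale in AKP against Ptch and -0.70 to 0.65 in NKP against Ptch (edgeR adjusted p = 0.569 and 0.974). In AKP against Ptch the interval spans a fold from 0.491 to 1.29, so differences within it are not excluded by these libraries.

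**Figure D2:**
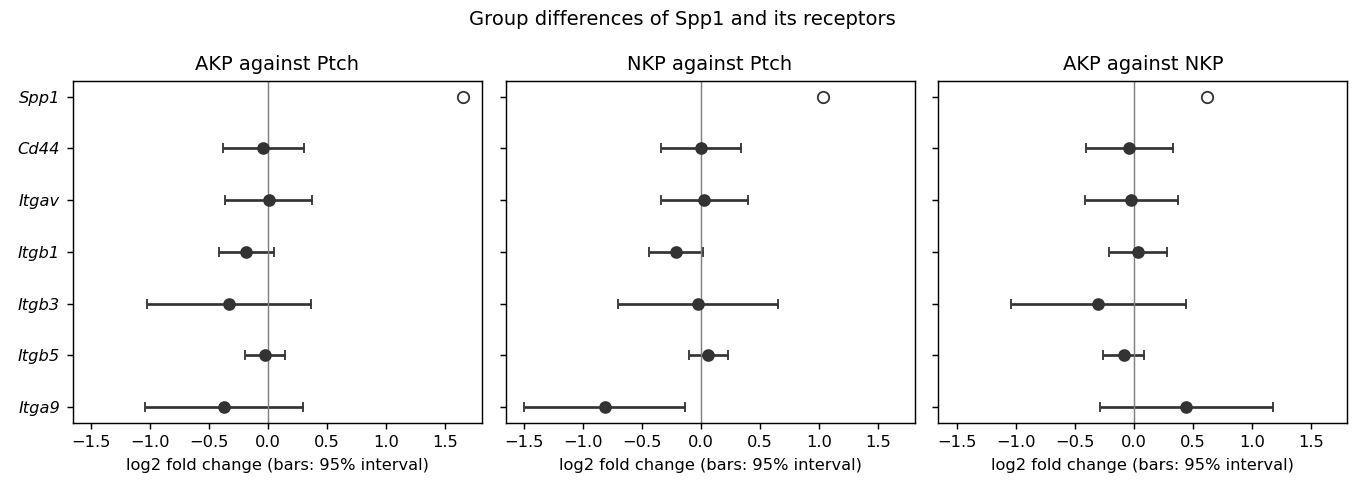
Log2 fold change (points) in 3 comparisons, from the edgeR fit of all 10 libraries, with 95% intervals (bars) for the 6 receptor genes and none for Spp1 (open point), which was chosen on these values. Spp1 is at 1.65 in AKP and 1.03 in NKP against Ptch, and only the interval of Itga9 in NKP against Ptch (-1.501 to -0.14) lies wholly to a side of 0 among the receptor genes.

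Levels per length place the ligand beside its receptors. On the scale of CPM per kilobase of the longest annotated transcript, Spp1 was at 42.0, 64.7 and 62.2 in AKP 1 to 3. It was at 37.0, 45.3 and 27.98 in the libraries NKP 1 to 3, and at 13.9, 12.2, 22.2 and 23.4 in Ptch 1 to 4. Itgb5 ran from 26.1 to 29.6 over all 10 libraries and Itgb1 from 16.3 to 22.9. Spp1 was the most abundant of the 7 transcripts in 5 libraries (AKP 1 to 3, NKP 1 and NKP 2), the second in NKP 3, Ptch 3 and Ptch 4, and the third, below Itgb5 and Itgb1, in Ptch 1 and Ptch 2. Itgav (2.88 to 4.76) was in 4th place and Cd44 (1.24 to 1.71) in 5th place in all 10 libraries. Itga9 (0.269 to 0.773) and Itgb3 (0.253 to 0.590) exchanged the 2 lowest places from library to library and did not differ beyond their spread. Spp1 and Itgb5 means differed by less than their joint spread in NKP, at 36.7 ± 8.66 for Spp1 and 28.8 ± 0.748 for Itgb5 (SD, n = 3). In Ptch the same held for Spp1 and Itgb1, at 17.9 ± 5.69 and 20.5 ± 2.02 (SD, n = 4).

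The ratio of Spp1 to Itgb5 per length was 1.53, 2.46 and 2.27 in AKP 1 to 3. It was 1.29, 1.61 and 0.945 in the libraries NKP 1 to 3, and 0.530, 0.467, 0.756 and 0.815 in Ptch 1 to 4. The ratio lay above 1 in 5 of the 6 tumour-labelled libraries and below 1 in all 4 Ptch libraries, with NKP 3 between. It falls under the same description as Spp1, since Itgb5 varied little.

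**Figure D3:**
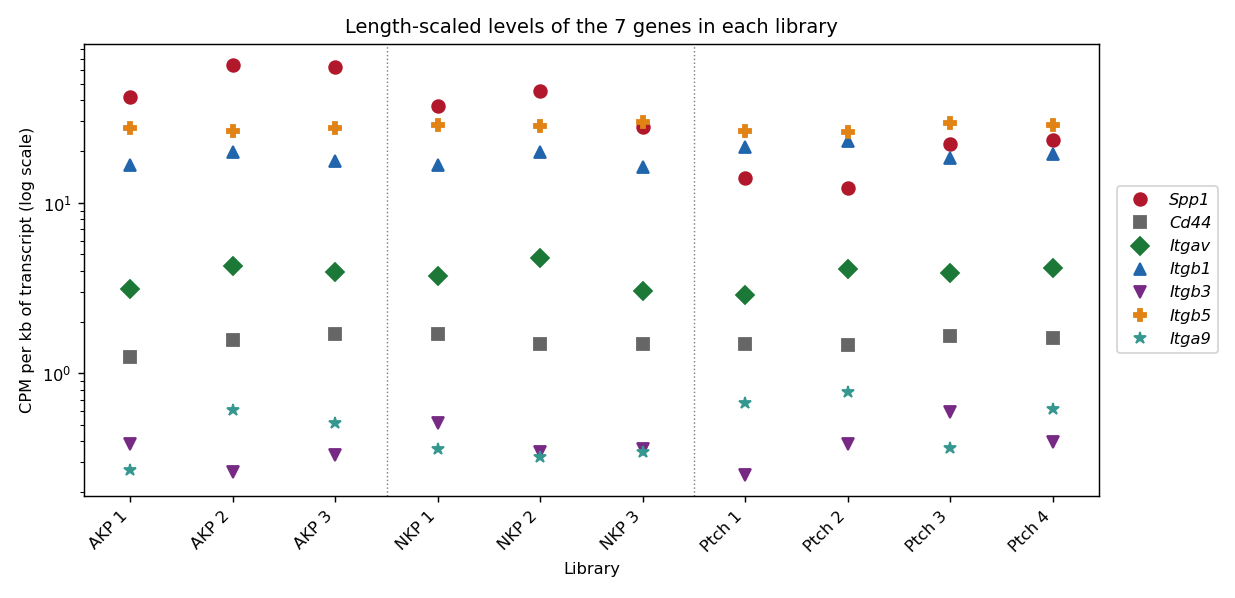
CPM per kilobase of the longest transcript (log axis) of the 7 genes in each library, with dotted lines between AKP, NKP and Ptch. Spp1 moves from above Itgb5 in AKP 1 to 3, NKP 1 and NKP 2 to below it in NKP 3 and the 4 Ptch libraries, while Itgav and Cd44 keep their places.

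Genes around the ligand and its receptors were read from 6 lists, and none of their members passed the test in any comparison. The integrin chains that can also bind osteopontin (Itga4, Itga5, Itga8, Itgb6 and Itgb7) had 4 of 5 tested, with a median log2 fold change of 0.15 in AKP against Ptch, 0.22 in NKP against Ptch and -0.19 in AKP against NKP. Itga4, the α4 chain of leukocyte integrins, was at 2.38 ± 0.499 CPM in AKP (SD, n = 3) and 4.41 ± 1.24 CPM in Ptch (SD, n = 4), a log2 fold change of -0.88 (SE 0.282, edgeR adjusted p = 0.0765). The 13 tested of 16 other integrin subunits had medians of -0.08 in AKP against Ptch, -0.02 in NKP against Ptch and -0.21 in AKP against NKP. Itgb8, another partner of αv, was at 1.28 ± 0.391 CPM in AKP and 2.53 ± 0.982 CPM in Ptch (-0.99, SE 0.370, edgeR adjusted p = 0.117), but -0.02 in NKP against Ptch.

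Other members of the osteopontin family (the SIBLING proteins of bone and tooth matrix) were scarce. Dmp1 alone of 4 was tested, at 11.6 ± 1.26 CPM in AKP, 11.3 ± 1.82 CPM in NKP (SD, n = 3 each) and 9.99 ± 3.95 CPM in Ptch (SD, n = 4), with log2 fold changes of 0.22 and 0.18 against Ptch (edgeR adjusted p = 0.646 and 0.751). Mepe was at 0 in all 10 libraries and Ibsp at 0.153 CPM or less. Of 4 proteases that cut osteopontin, Mmp9 alone was tested, at 3.13 ± 0.984 CPM in AKP (SD, n = 3) and 1.67 ± 0.333 CPM in Ptch (SD, n = 4), a log2 fold change of 0.92 (SE 0.310, edgeR adjusted p = 0.0895).

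Of 7 other ligands of the same receptors and hyaluronan synthases, 6 were tested, with a median of -0.27 in AKP against Ptch, 0.23 in NKP against Ptch and -0.35 in AKP against NKP. Vtn, which encodes the αv ligand vitronectin, was at 104 ± 10.6 CPM in AKP, 119 ± 11.5 CPM in NKP (SD, n = 3 each) and 84.5 ± 13.1 CPM in Ptch (SD, n = 4). Its log2 fold change was 0.30 in AKP and 0.50 in NKP against Ptch (edgeR adjusted p = 0.141 and 0.218). Tnc, the α9β1 ligand tenascin-C, was at -0.54 in AKP against Ptch (SE 0.219, edgeR adjusted p = 0.146). Among 17 tested of 18 adaptors and kinases that link integrins or CD44 to actin, 15 were below 0 in AKP against Ptch, with a median of -0.16 beside -0.02 over all genes. The smallest p there were those of Src, a kinase (-0.27, SE 0.0876, edgeR adjusted p = 0.0830), and Pxn, which encodes paxillin (-0.37, SE 0.124, adjusted p = 0.0891).

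Markers of cell types known to make osteopontin were summed in the same libraries. Microglia markers, 12 of 12 tested and 0 passing, summed to 278 to 557 CPM in AKP, 268 to 282 CPM in NKP and 307 to 412 CPM in Ptch. The NKP libraries and AKP 1 (278 CPM) were thus lower in microglia markers than the Ptch libraries and higher in Spp1. AKP 2 (557 CPM) and AKP 3 (444 CPM) were the highest of all libraries both in that sum and in Spp1. Reactive microglia and lipid-handling macrophage markers, 10 of 10 tested and 0 passing, summed to 2513 to 3392 CPM in AKP, 2070 to 2628 CPM in NKP and 2438 to 2859 CPM in Ptch. Apoe, Gpnmb and Clec7a of that list were singled out after their values were seen. Most of the sum was Apoe, a lipid carrier that astrocytes also make, at 2491 ± 259 CPM in AKP, 2086 ± 263 CPM in NKP (SD, n = 3 each) and 2209 ± 112 CPM in Ptch (SD, n = 4). Log2 fold changes of the 10 members were above 0 for 6 in AKP against Ptch (median 0.10, 1 with an unadjusted edgeR p under 0.05). They were below 0 for all 10 in NKP against Ptch (median -0.71, 4 with an unadjusted edgeR p under 0.05). Gpnmb, a gene of lipid-handling macrophages, was at 1.40, 24.2 and 17.3 CPM in AKP 1 to 3, at 1.47 to 6.35 CPM in the NKP libraries and at 11.2 to 16.6 CPM in the Ptch libraries. Clec7a was at 2.88, 6.06 and 5.08 CPM in AKP 1 to 3, at 0.327 to 2.03 CPM in the NKP libraries and at 1.97 to 3.15 CPM in the Ptch libraries. Border macrophage markers, 5 of 5 tested and 0 passing, summed to 11.0 to 13.7 CPM in AKP, 9.64 to 18.6 CPM in NKP and 7.34 to 9.32 CPM in Ptch. That sum lay wholly above Ptch in both groups, as Spp1 did, with 5 of 5 members above 0 in each comparison with Ptch (median 0.63 in AKP and 0.90 in NKP). Osteoblast markers, 4 of 7 tested and 0 passing, summed to 22.3 to 27.1 CPM in AKP, 22.3 to 26.4 CPM in NKP and 17.5 to 27.6 CPM in Ptch. Of 4 tested members, 3 were above 0 in each comparison with Ptch (median 0.28 in AKP and 0.19 in NKP). Most of the sum was Dmp1, given above, and Alpl. Alpl averaged 9.74 ± 1.89 CPM in AKP, 9.52 ± 2.44 CPM in NKP (SD, n = 3 each) and 7.53 ± 1.57 CPM in Ptch (SD, n = 4). Bglap and Ibsp, singled out after their values were seen, were at 0.493 and 0.153 CPM or less in every library. Osteoclast markers, 2 of 5 tested and 0 passing, summed to 7.14 to 9.43 CPM in AKP, 6.30 to 8.50 CPM in NKP and 5.52 to 6.51 CPM in Ptch. The part of these cells in the Spp1 level was not tested.

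The summed level of markers of large brainstem and deep nuclear neurons moved with Spp1, and most of that sum came from 3 neurofilament genes. The list summed to 902.7, 1144 and 1077 CPM in AKP 1 to 3, to 922, 959 and 817 CPM in NKP 1 to 3, and to 569.9, 569.9, 769 and 805 CPM in Ptch 1 to 4. In order of that sum the 10 libraries stand as they do in order of Spp1, except for AKP 1 and NKP 1, which change places, and Ptch 1 and Ptch 2, which are nearly equal in the sum. Nefl, Nefm and Nefh averaged 444, 256 and 226 CPM in AKP, and 281, 177 and 137 CPM in Ptch. Other members, singled out after their values were seen, did not follow Spp1 in all libraries. Tph2, the serotonin synthesis enzyme of raphe neurons, was at 1.15, 45.5 and 35.2 CPM in AKP 1 to 3, at 0.900, 0.719 and 6.79 CPM in NKP 1 to 3, and at 11.5 to 15.4 CPM in the Ptch libraries. Slc17a6, a vesicular glutamate transporter, was at 26.9, 75.5 and 67.6 CPM in AKP 1 to 3. It was at 31.3 to 41.2 CPM in the NKP libraries and at 41.08 to 56.1 CPM in the Ptch libraries. AKP 2 and AKP 3 were thus highest for both genes, as they were for Spp1. Log2 fold changes were above 0 for 10 of 10 tested members in AKP against Ptch and for 7 of 10 in NKP against Ptch. Of 16 listed genes 10 were tested and 4 rose in AKP against Ptch by edgeR, where 3.38% of all genes rose. The list was drawn up with earlier results of these data known. This count and the shared order of the sum and Spp1 are therefore a description and not a test of the list. Nefh, a large part of the sum, is also the gene ranked most like Spp1 below (r 0.990), so the shared order partly restates that likeness. The neurofilament genes Nefh, Nefm and Nefl rose by log2 fold changes of 0.71, 0.53 and 0.66 (edgeR adjusted p = 0.0209, 0.0379 and 0.0435), and Hoxb5, a positional gene of the hindbrain, by 3.33, with 1.55 ± 0.915 CPM in AKP (SD, n = 3) and 0.146 ± 0.169 CPM in Ptch (SD, n = 4; edgeR adjusted p = 0.0284). These calls depended on the libraries used: Nefh passed in 15 of 25 alternatives, Nefm in 11, Nefl in 9 and Hoxb5 in 10 of the 21 that gave it a value. Nefh did not pass without Ptch 1, Ptch 2, AKP 2 or AKP 3, each left out alone (edgeR adjusted p = 0.0667, 0.0635, 0.115 and 0.0606), nor without both Ptch 1 and Ptch 2 (0.139). Without each of those 4, Nefm, Nefl and Hoxb5 did not pass either. None of the 10 passed in NKP against Ptch, where 0% of all genes did, or in AKP against NKP. The part of these neurons in the Spp1 level was not tested.

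Other cell type lists had at most 3 genes past the threshold in AKP against Ptch. These were the red blood cell genes Hbb-bs, Hba-a1 and Alas2, the myelin gene Mobp, Olig1 of oligodendrocyte precursors and Ly6c1 of endothelium, each of which rose by edgeR. Red blood cell markers summed to 1742 to 2233 CPM in AKP, 783 to 2486 CPM in NKP and 711 to 816 CPM in Ptch, with NKP 3 lowest of the tumour-labelled libraries. Several other sums lay wholly above Ptch in both groups, as Spp1 did. Oligodendrocyte markers summed to 8817 to 11027 CPM in AKP, 7587 to 12251 CPM in NKP and 6061 to 7370.4 CPM in Ptch. Endothelial markers summed to 169.6 to 208 CPM in AKP, 173 to 205 CPM in NKP and 118 to 160.0 CPM in Ptch. Meningeal fibroblast markers summed to 103 to 122 CPM in AKP, 103 to 164 CPM in NKP and 91.4 to 101 CPM in Ptch. The part of these cells and of blood in the Spp1 level was not tested. Granule neuron precursor markers summed to 80.1 to 250 CPM in AKP, 80.4 to 135 CPM in NKP and 182 to 380 CPM in Ptch.

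**Figure D4:**
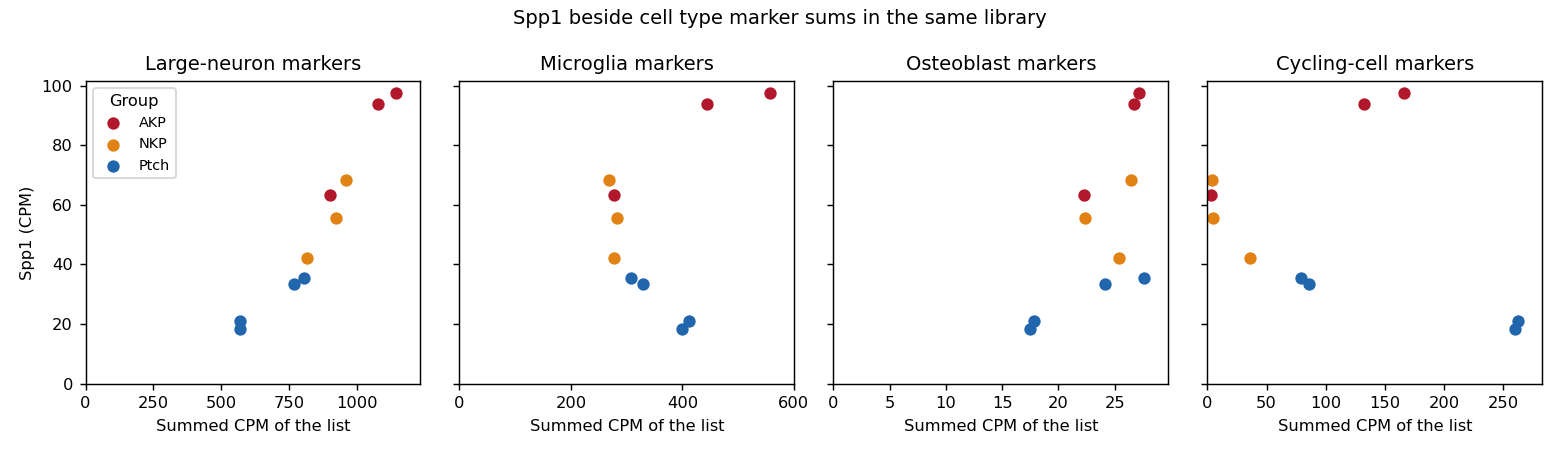
Spp1 in CPM (vertical axis) against the summed CPM of 4 marker lists (horizontal axes) in the 10 libraries, coloured by group. Spp1 runs from 18.4 to 97.5 CPM along large-neuron sums of 570 to 1144 CPM, while microglia sums are low in the NKP libraries and AKP 1, and cycling sums are highest in Ptch 1 and Ptch 2.

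Genes with a pattern most like that of Spp1 were ranked by Pearson's r of log2 CPM over the 10 libraries, among 11007 genes with a mean count of at least 100. The libraries share groups, depth and tissue makeup, so r is given as a description. The 5 highest were Nefh (0.990), which encodes the heavy neurofilament, Anxa2 (0.989), a membrane-binding annexin, Vamp1 (0.987), a synaptic vesicle protein, Hspb1 (0.977), a small heat shock protein, and Ptgds (0.9753), prostaglandin D synthase. Nefh ran from 204 to 238 CPM in AKP, 173 to 204 CPM in NKP and 115 to 163 CPM in Ptch. Anxa2 ran from 28.03 to 36.0 CPM in AKP, 23.3 to 29.1 CPM in NKP and 13.9 to 20.03 CPM in Ptch. With each group's mean taken off, so that only differences within groups count, the 5 highest were Ccdc149 (0.973), Sdc2 (0.972), Nefh (0.963), Dnajc12 (0.961) and Ptgds (0.946). Nefh and Ptgds were thus among the 5 by both measures. The receptor genes were far from Spp1 by this measure, from -0.53 for Itgb1 and -0.43 for Itga9 to 0.13 for Cd44 and 0.32 for Itgav.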

How the data were processed

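Poly-A RNA of 10 libraries was sequenced, and the submitters' processing notes name Trim Galore, STAR, RSEM and build GRCm38. Tool versions were not given in the sources used here, nor was the gene annotation. The authors deposited 1 table, taken here as RSEM expected counts already rounded: every value is a whole number and the totals are unequal. RSEM estimates how reads that fit several genes are shared.

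Genes were filtered with filterByExpr (15617 kept) and scaled by TMM, and groups were tested in 1 fit of all 10 libraries without covariates by edgeR 4.0.16 (R 4.3.3) with the quasi-likelihood F test and Benjamini-Hochberg adjustment over all tested genes, with a threshold of 0.05. SE is the size of the log2 fold change divided by the square root of F, and 95% intervals use the fit's degrees of freedom. CPM is on the TMM scale, and log2 CPM for likeness used a prior count of 1. Lengths are of the longest GENCODE vM21 transcript. Gene coordinates and promoter windows are from RefSeq, GRCm38.p6.

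The 7 genes and all lists were chosen with earlier results of these data known. All 7 genes were named in each comparison, with at most 4 members of a list, those with the smallest p, and any past the threshold, Kmt2d as the floxed gene, Ptch1, and the 5 genes most like Spp1 by each measure. The tissue marker lists not named in the text had 0 genes past the threshold. The fit was tested on simulated counts. DESeq2 1.42.0, other scalings and filters, covariates, age-matched libraries, a replicate block and each library left out were alternatives. A correction for transcript length and GC content by library (lowess, span 0.3) was available for 95.6% of tested genes. After seeing the data, fits without Ptch 1 and Ptch 2, and without NKP 1, NKP 2 and AKP 1, were added. Where an alternative leaves a group with 1 library, that library is assumed to vary like the others.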

Additional observations from a re-analysis of the deposited data

How the results depend on the processing

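Spp1 kept its sign in each of 25 alternatives per comparison: 1.22 to 1.82 (log2 fold change) in AKP against Ptch, 0.65 to 1.499 in NKP against Ptch and 0.38 to 1.17 in AKP against NKP. Age-matched libraries gave 1.22 (AKP) and 1.499 (NKP) for the comparisons with Ptch, and leaving out NKP 1, NKP 2 and AKP 1 gave 1.17 for AKP against NKP. With 1 library left out at a time it ran from 1.51 to 1.82, 0.85 to 1.20 and 0.46 to 0.80. Against Ptch, leaving out libraries could not reverse the sign, since the groups did not overlap. Receptor genes past the threshold stayed at 0 of 6 in each alternative except age-matched NKP against Ptch, with 1 (Itga9), where 15.6% of all tested genes passed.

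Counts of all genes called moved widely. In AKP against Ptch (887) the count was 231 in a fit with the sex label, 3 in a fit with Y-linked expression, 16 after the length and GC correction, 1887 by DESeq2 and 1790 without NKP 1, NKP 2 and AKP 1. It was 0 in age-matched libraries, without Ptch 1 and Ptch 2 and without the 4 libraries against their sex label. It ran from 0 (without AKP 3) to 1459 (without AKP 1) with 1 library left out. Leaving out AKP 2, Ptch 1 or Ptch 2 alone gave 1, Ptch 4 gave 183, Ptch 3 gave 321 and NKP 2 gave 553. Upper quartile scaling called 994, 741 of them higher, against 528 of 887. In NKP against Ptch (0) it was 933 with age as a covariate, 2575 in age-matched libraries and 415 by DESeq2, and 0 with any 1 library left out. In AKP against NKP (1) it was 419 in age-matched libraries, 175 by DESeq2, 12 without NKP 1, NKP 2 and AKP 1, and 0 to 1364 with 1 library left out, the highest without AKP 1. There it was 0 with only the 2 groups compared, with age or sex label as a covariate, without Ptch 1 and Ptch 2 and without the 4 libraries against their sex label. The cause was not tested.

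Same-numbered libraries did not deviate together (correlations of -0.26 to 0.32), so the numbers do not pair them. A replicate block gave 0 genes called in each comparison and Spp1 at 1.81, 1.21 and 0.60 in the order above.

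Small receptor differences changed sign, each from a value near 0. In AKP against Ptch, Itgav (0.0036) was at -0.0066 with no filter on low counts, -0.0071 with age and -0.0023 with sex label as a covariate, -0.13 in age-matched libraries, -0.15 without the 4 libraries that go against it, -0.094 with Y-linked expression and -0.089 without Ptch 1 and Ptch 2. Itgb5 was at 0.0081 with upper quartile scaling, 0.0069 with the block and 0.024 after the length and GC correction, and Cd44 at 0.076 without NKP 1, NKP 2 and AKP 1 and 0.073 after that correction. In NKP against Ptch, Cd44 was at 0.016 with upper quartile scaling, 0.0044 with only the 2 groups, 0.0090 with sex label, 0.021 with the block, 0.071 in age-matched libraries and 0.049 without the libraries against their sex label. Itgb3 was at 0.18 with age, 0.030 with sex label, 0.31 in age-matched libraries, 0.12 without the 4 libraries against that label and 0.023 after the length and GC correction. Itgav was at -0.071 with Y-linked expression, -0.078 without Ptch 1 and Ptch 2 and -0.31 without NKP 1, NKP 2 and AKP 1, and Itgb5 at -0.011 and -0.018 under the first pair of these. In AKP against NKP, age-matched libraries gave Cd44 0.14, Itgav 0.033 and Itgb1 -0.013; leaving out NKP 1, NKP 2 and AKP 1 gave Cd44 0.14 and Itgav 0.43; the length and GC correction gave Cd44 0.075 and Itgav 0.14. With 1 library left out, AKP against Ptch ran from -0.093 to 0.12 for Itgav, -0.043 to 0.0052 for Itgb5 and -0.14 to 0.075 for Cd44. NKP against Ptch ran from -0.16 to 0.17 for Itgav, -0.070 to 0.035 for Cd44 and -0.21 to 0.21 for Itgb3, and AKP against NKP from -0.14 to 0.077 for Cd44, -0.049 to 0.12 for Itgb1 and -0.16 to 0.17 for Itgav. Itgb3 gave no value at a mean count of at least 50. Itgb3 and Itga9 had the fewest counts, with means of 34.9 and 53.1 per library, and in AKP against Ptch the SD between replicates was 0.39 and 0.54 in log2 CPM.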
